A study of Mus musculus with 24 samples.

Results

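Collagen chain genes encode the polypeptides that fold in threes into collagen triple helices. The members were all genes on the array whose symbol consists of Col, a type number, the letter a and a chain number, and 44 of the 24011 genes measured met this rule, each with 1 array identifier. They were described in 3 classes taken from the known structure of the proteins: 11 fibrillar chains, 8 basement membrane chains and 25 other chains. The hearts came from 8-week-old C57BL/6J mice that had undergone either a sham operation or middle cerebral artery occlusion (MCAO), a surgical model of ischemic stroke, and that were killed 24 h or 72 h later. Each of the 4 groups (sham 24 h, MCAO 24 h, sham 72 h, MCAO 72 h) held 6 arrays, hybridised with biotin-labelled cRNA made from total heart RNA. The sham groups had the operation and the same age and strain but not the occlusion, and the 24 h and 72 h comparisons had no array in common. The question was whether a stroke in the brain was followed by a change in collagen transcripts in the heart.

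Fibrillar collagens form the tensile scaffold of the heart wall. In the myocardium, types I and III make up most of this scaffold, and type V is built into the same fibrils and limits their diameter. Type IV chains form the sheet-like network of basement membranes around cardiomyocytes and capillaries, types XV and XVIII attach to basement membranes, type VI forms beaded filaments between cells and fibrils, and the fibril-associated collagens decorate the fibril surface. Most cardiac fibrillar collagen is made by fibroblasts, its folding in the endoplasmic reticulum depends on dedicated hydroxylases and on the chaperone Serpinh1, and its synthesis is raised by transforming growth factor beta and lowered by the miR-29 family.

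The promoters of Col3a1, Col1a2 and Col5a1 are shown because the chains they encode assemble into mixed fibrils and were 3 of the 4 fibrillar chains with the largest decreases described below. Each window holds the 250 bases before the annotated transcription start, from RefSeq on GRCm38.p6, plus strand, and capitals mark letters found by a search of either strand for CCAAT. They also mark matches to a TATA box, searched as TATAAA, and to a GC box, searched as GGGCGG. The motifs do not overlap each other here.
Col3a1, chr1:45311288-45311537: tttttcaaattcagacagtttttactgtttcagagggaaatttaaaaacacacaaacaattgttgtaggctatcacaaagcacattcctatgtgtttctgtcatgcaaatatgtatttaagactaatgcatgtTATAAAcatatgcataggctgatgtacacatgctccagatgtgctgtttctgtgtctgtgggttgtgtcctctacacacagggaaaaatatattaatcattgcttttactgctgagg
Col1a2, chr6:4505368-4505617: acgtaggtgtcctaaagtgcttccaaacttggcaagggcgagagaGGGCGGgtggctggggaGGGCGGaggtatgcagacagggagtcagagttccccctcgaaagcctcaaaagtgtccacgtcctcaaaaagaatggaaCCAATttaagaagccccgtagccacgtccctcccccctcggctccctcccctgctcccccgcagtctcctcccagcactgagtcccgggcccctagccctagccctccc
Col5a1, chr2:27886175-27886424: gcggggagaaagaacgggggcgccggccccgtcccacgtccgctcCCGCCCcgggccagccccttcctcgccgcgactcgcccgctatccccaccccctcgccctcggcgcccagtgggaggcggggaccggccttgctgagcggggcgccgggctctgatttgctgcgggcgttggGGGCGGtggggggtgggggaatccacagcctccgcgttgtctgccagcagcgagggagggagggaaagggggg
These 3 windows did not share a motif arrangement. The Col3a1 window held 1 TATAAA, beginning 117 bases before the start, and no match to the other motifs. The Col1a2 window held 1 CCAAT at 109 bases and GGGCGG at 205 and 188 bases before the start. The Col5a1 window is rich in G and C and held GC boxes at 205 bases (minus strand) and 73 bases (plus strand).

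Promoter windows were on hand for 35 of the 44 genes. Among the 8 fibrillar genes with a window, 3 held CCAAT, 2 held TATAAA and 6 held GGGCGG. Of the 7 basement membrane genes, 4 held CCAAT, 0 held TATAAA and 4 held GGGCGG, and of the 20 other genes these numbers were 5, 3 and 11. Over 27025 promoter windows of the same length, 34.5% held CCAAT, 13.0% held TATAAA and 32.9% held GGGCGG, on either strand. A match of letters is a description of the sequence and does not show a bound factor.

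Several of the genes are neighbours with 0 protein-coding genes between them. These include Col3a1 and Col5a2 on chromosome 1, Col4a3 and Col4a4 on chromosome 1, Col6a1 and Col6a2 on chromosome 10, Col4a1 and Col4a2 on chromosome 8, and Col4a5 and Col4a6 on chromosome X. The annotated starts of Col4a1 and Col4a2 lie 21 bases apart on opposite strands, and those of Col4a5 and Col4a6 lie 1343 bases apart.

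Values are log2 expression, on which 1 unit is a doubling of signal, and levels are compared between groups for 1 gene, not between genes. The arrays of a group correlated with the mean of the rest of their group at r = 0.971 to 0.991 in MCAO 24 h, 0.985 to 0.997 in sham 24 h, 0.991 to 0.997 in sham 72 h and 0.996 to 0.997 in MCAO 72 h. Replicates 5 and 6 of MCAO 24 h stood apart from the rest of that group over all genes, and replicate 2 of sham 72 h was high in fibrillar collagens. Olfactory, vomeronasal and trace amine receptor genes, which the heart is not known to use widely, also differed between MCAO and sham at 24 h for 160 of 1384 genes (11.6%), against 1 of 1384 at 72 h. Over all genes these shares were 21.8% at 24 h and 2.35% at 72 h. Among genes with a mean under that of the median gene they were 15.2% and 0.025%. Defining markers of cardiomyocytes were at high signal in every group, with summed levels of 15.9 to 16.2 on the log2 scale. No label states that each array was a separate animal, so each p-value is relative to the spread among these arrays, which may be technical.

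At 24 h after MCAO the heart held less RNA of most fibrillar collagen chains than after the sham operation, while the type IV network chains showed no call. By limma over all 24011 genes (Benjamini-Hochberg adjusted p below 0.05), 12 of the 44 collagen genes were lower (27.3%) and 2 were higher (4.55%). The shares over all genes were 10.8% lower and 11.1% higher, 21.8% in either direction. The calls fell on 9 of 11 fibrillar genes, all lower, on 1 of 8 basement membrane genes, lower, and on 4 of 25 other genes, 2 lower and 2 higher. The median log2 change was -0.52 over the fibrillar genes, -0.12 over the basement membrane genes and -0.15 over the others, against 0.01 over all genes. In bulk tissue, fewer cells of a type and less RNA per cell cannot be told apart.

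**Figure D1:**
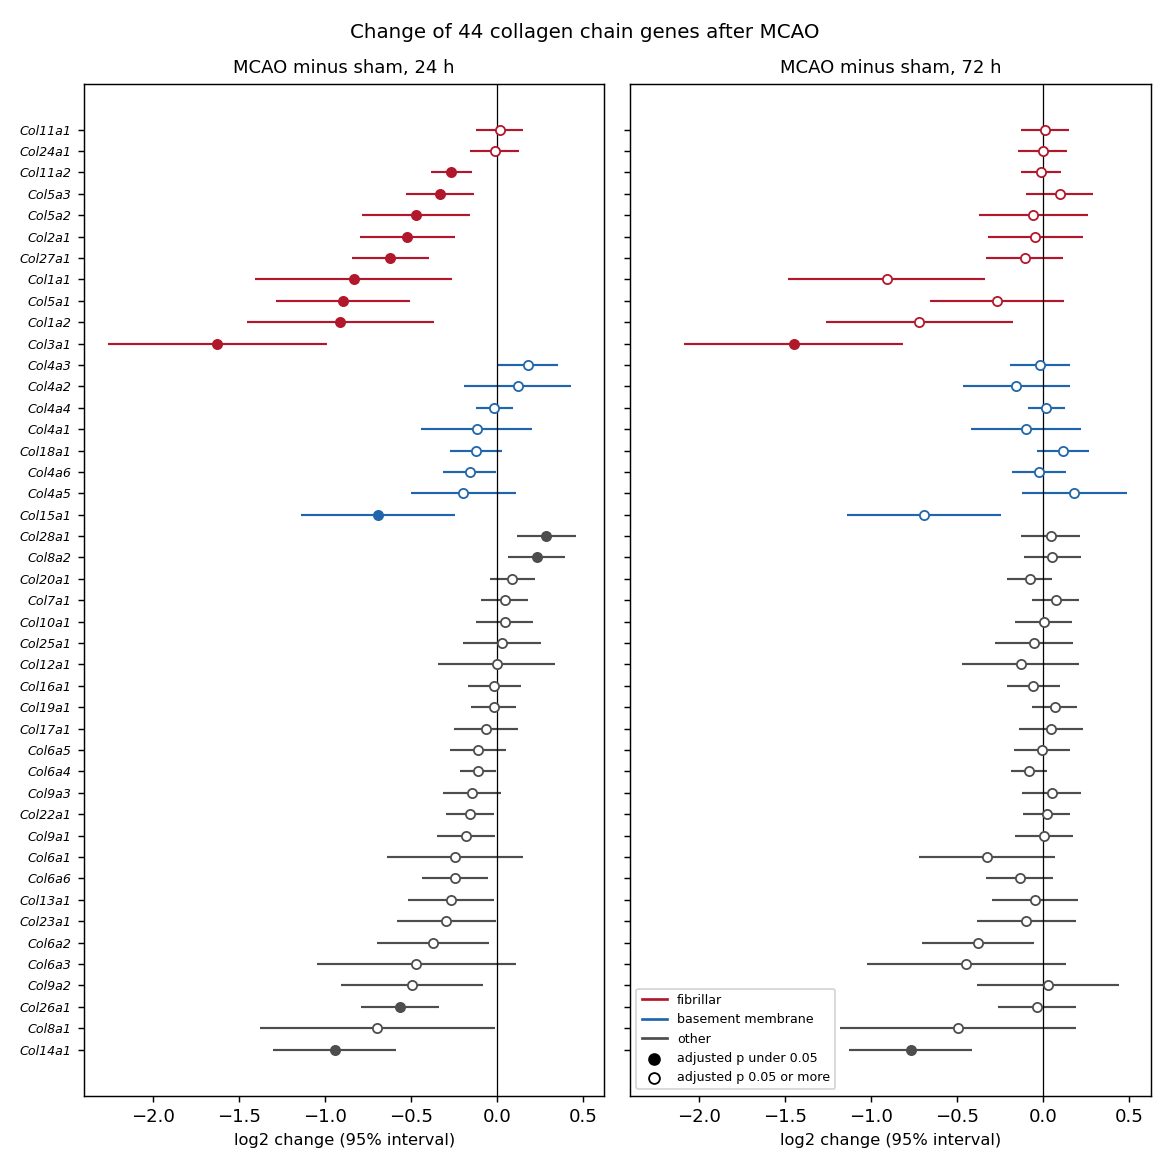
Log2 change, MCAO minus sham, of the 44 collagen chain genes at 24 h (left) and 72 h (right), with 95% intervals from the limma model. Points are the estimates, colours are the 3 classes, and filled points had an adjusted p below 0.05, namely 14 genes at 24 h and 2 at 72 h, with Col3a1 at -1.63 and -1.45.

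Col3a1, the single chain of type III collagen, changed most. In sham 24 h its 6 log2 levels ran from 6.98 to 7.80 around a median of 7.10, and in MCAO 24 h they ran from 4.53 to 6.37 around 5.77. All 6 MCAO arrays lay below all 6 sham arrays. The difference was -1.63 (SE 0.31), 3.09-fold lower, with adjusted p = 0.000729.

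Type I collagen, the main load-bearing fibril of the heart, is built from Col1a1 and Col1a2. Col1a2 had values of 7.04, 7.55 and 8.03 (lowest, median, highest) in sham 24 h and 5.80, 6.71 and 7.29 in MCAO 24 h, and it fell by 0.91 on the log2 scale (SE 0.26, 1.88-fold lower, adjusted p = 0.016). Col1a1 had values of 7.06, 7.70 and 8.26 in sham 24 h and 6.15, 6.85 and 7.67 in MCAO 24 h, and it fell by 0.83 (SE 0.28, 1.78-fold lower, adjusted p = 0.0342). For each chain 1 MCAO array reached into the sham range. The Col1a1 call was lost when any 1 of 5 arrays was left out (sham 24 h replicates 1, 4 or 5, MCAO 24 h replicates 4 or 6), with an adjusted p of up to 0.0848, whereas the Col1a2 call stood in each such fit.

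The type V chains, which are built into type I fibrils, were all lower at 24 h. Col5a1, whose product nucleates these fibrils, spanned 5.61 to 6.67 with a median of 6.09 in sham 24 h and 4.82 to 5.52 with a median of 5.38 in MCAO 24 h, with no overlap. It fell by 0.90 (SE 0.19, 1.86-fold lower, adjusted p = 0.00188). Replicates 5 and 6 of MCAO 24 h were the lowest for Col5a1 (4.83 and 4.82), and the other arrays of that group were at 5.37 or above. Leaving out 1 array gave changes of -1.002 to -0.79, and the call stood. Col5a2 fell by 0.47 (SE 0.15, adjusted p = 0.0295), from a sham median of 5.25 (range 4.996 to 5.43) to an MCAO median of 4.73 (range 4.37 to 5.26). Col5a3 fell by 0.33 (SE 0.10, adjusted p = 0.0152), from 5.31 (range 5.27 to 5.94) to 5.05 (range 4.95 to 5.34). The ranges of Col5a2 and of Col5a3 overlapped between the groups, and the Col5a2 call was lost when any 1 of 4 arrays was left out.

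The remaining fibrillar calls were on chains better known from cartilage. Col27a1 had values of 5.26 to 6.06 (median 5.32) in sham 24 h and 4.71 to 5.04 (median 4.76) in MCAO 24 h, and it fell by 0.62 (SE 0.11, adjusted p = 0.000328). Col2a1, the main cartilage fibril chain, spanned 4.53 to 5.19 (median 4.65) in sham and 3.62 to 4.57 (median 4.33) in MCAO, and it fell by 0.52 (SE 0.13, adjusted p = 0.00746). Col11a2 spanned 4.00 to 4.24 (median 4.08) in sham and 3.70 to 3.90 (median 3.84) in MCAO, and it fell by 0.27 (SE 0.06, adjusted p = 0.00218). Its signal was low, with a mean over all arrays of 4.01, under that of the median gene on the array (4.15). The groups did not overlap for Col27a1 and Col11a2, while for Col2a1 the highest MCAO array lay just above the lowest sham array. Replicates 5 and 6 of MCAO 24 h were the lowest for Col2a1 (3.83 and 3.62), and without them its change was -0.29 (adjusted p = 0.0454). With array weights it was -0.32 and the call was lost (adjusted p = 0.0639). Of the cartilage or valve markers, 1 of 7 was called at 24 h, Cnmd, which was higher by 0.26 (adjusted p = 0.0219). The other fibrillar genes, Col11a1 (0.01, 95% interval -0.12 to 0.15) and Col24a1 (-0.02, interval -0.16 to 0.13), did not pass.

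**Figure D2:**
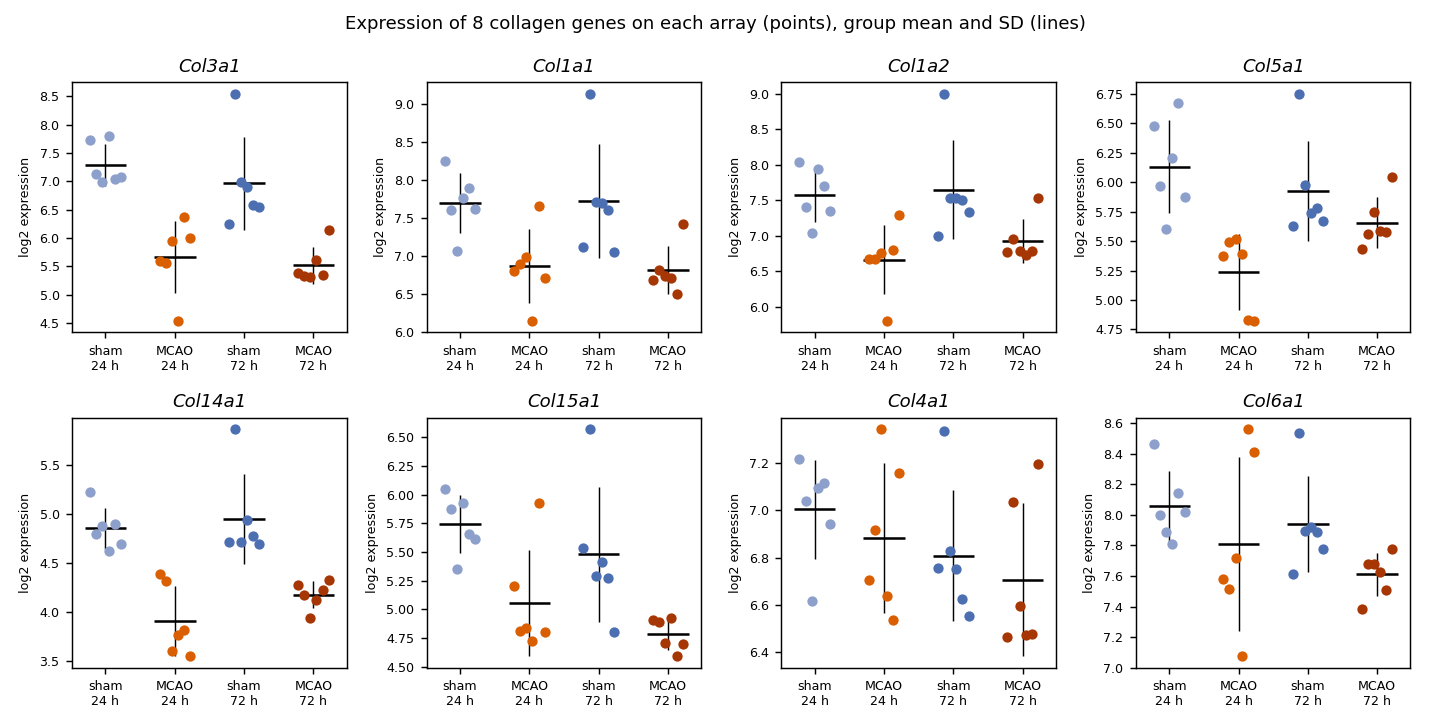
Log2 expression (vertical axis) of 8 collagen genes on each of the 24 arrays, by group, with group mean and SD as lines. Col3a1 and Col14a1 separate MCAO from sham at both times, and the highest sham 72 h point in the panels of Col3a1, Col1a1, Col1a2, Col5a1 and Col14a1 is replicate 2.

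Among basement membrane collagens only Col15a1 passed at 24 h. Col15a1 encodes a proteoglycan-type collagen that links basement membranes to the fibrils below them. It spanned 5.35 to 6.05 (median 5.77) in sham 24 h and 4.72 to 5.93 (median 4.83) in MCAO 24 h, so that 1 high MCAO array reached into the sham range. The fall was 0.69 (SE 0.22, adjusted p = 0.0254), and leaving out any 1 of 4 arrays ended this call. Its relative Col18a1, the source of endostatin, had a change of -0.12 (interval -0.27 to 0.03).

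None of the 6 type IV chains passed at either time by limma. Col4a1 and Col4a2, which form the network of capillary and cardiomyocyte basement membranes, had changes of -0.12 (interval -0.44 to 0.20) and 0.12 (interval -0.19 to 0.43) at 24 h, and of -0.10 (interval -0.42 to 0.22) and -0.16 (interval -0.47 to 0.15) at 72 h. The smallest p-values among the type IV chains at 24 h belonged to Col4a6 and Col4a3. Col4a6 had values of 3.75 to 3.97 in sham and 3.46 to 4.05 in MCAO (change -0.16, adjusted p = 0.131), and Col4a3 had 3.80 to 4.04 and 3.85 to 4.49 (change 0.18, adjusted p = 0.139). The intervals of the Col4a1 changes do not show that type IV RNA stayed the same, but at both times they leave out a fall as large as that of Col3a1.

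Among the other collagens, Col14a1, a fibril-associated collagen that regulates fibril growth, was the clearest. It had values of 4.63, 4.84 and 5.22 (lowest, median, highest) in sham 24 h and 3.56, 3.79 and 4.39 in MCAO 24 h, without overlap. It fell by 0.95 (SE 0.17, 1.93-fold lower, adjusted p = 0.000525). Col26a1 spanned 4.62 to 5.25 (median 4.75) in sham and 3.91 to 4.53 (median 4.29) in MCAO, also without overlap, and it fell by 0.57 (SE 0.11, adjusted p = 0.000894).

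The increases were small and on genes of low signal, as was the decrease of Col11a2 among the fibrillar genes. Col28a1 spanned 3.49 to 3.82 (median 3.57) in sham and 3.53 to 4.08 (median 3.96) in MCAO and was higher by 0.29 (SE 0.08, adjusted p = 0.0168). Col8a2, a chain of the hexagonal networks under some endothelia, spanned 3.59 to 3.91 (median 3.74) and 3.75 to 4.24 (median 3.93) and was higher by 0.23 (SE 0.08, adjusted p = 0.0416). Both ranges overlapped, and the Col8a2 call was lost in 8 of the fits that left out 1 array. Both increases were lost with array weights (adjusted p = 0.075 for Col28a1 and 0.107 for Col8a2) and when only the 24 h groups were fitted (0.0868 and 0.151). Some decreases were lost in these fits too. They were Col1a1 with array weights, Col5a3 with only the 24 h groups fitted, and Col2a1 in both. Of the 19 collagen genes whose mean lay under that of the median gene on the array (4.15), 1 was lower and 2 were higher, against 6.79% lower and 8.45% higher among all genes under it. Of the 25 at or above it, 11 were lower (44%) and 0 higher, against 14.7% and 13.7% of all such genes.

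The 6 type VI genes all had a negative sign at both times, and 0 of 6 passed. Of all 24011 genes, 11557 had a negative sign at 24 h and 11805 at 72 h. Col6a1, Col6a2 and Col6a3, the chains of the common type VI filament, had changes of -0.24 (adjusted p = 0.381), -0.37 (adjusted p = 0.0945) and -0.47 (adjusted p = 0.239) at 24 h, and of -0.33, -0.38 and -0.45 at 72 h (adjusted p = 0.637, 0.302 and 0.706). Col6a1 spanned 7.07 to 8.56 in MCAO 24 h and 7.81 to 8.46 in sham 24 h. Among the fibril-associated and related chains 1 of 9 was called at 24 h (Col14a1), and among the 4 transmembrane chains none, with changes between -0.30 and 0.03.

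Complete separation of the groups gave a shorter list. At 24 h, 6 collagen genes had all MCAO arrays below all sham arrays (Col3a1, Col5a1, Col11a2, Col27a1, Col14a1 and Col26a1), a separation found for 2.65% of all genes, and 0 had all MCAO arrays above, against 2.88%. At 72 h, 2 did (Col3a1 and Col14a1), against 1.77% of all genes, and 0 lay above, also against 1.77%.

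The number of 24 h calls moved with the arrays and with the receptor genes. Without replicates 5 and 6 of MCAO 24 h it was 22 (19 lower, 3 higher). That rise is not set against the share of all genes called without these arrays. It is therefore not read as a result about collagen genes. When a covariate made from the receptor genes (their leading principal component) was added, 0 collagen genes were called at 24 h. The number of all genes called then fell from 5237 to 324. In that fit the change of Col3a1 was -2.14 (SE 0.55, adjusted p = 0.0539), and those of Col1a1, Col1a2, Col15a1 and Col14a1 were -1.21, -1.03, -1.22 and -0.66. Changes of Col5a1, Col27a1 and Col26a1 were -0.28, -0.18 and -0.15 there, and that of Col2a1 was 0.17. The covariate was made from the same arrays, and 160 receptor genes themselves differed between MCAO and sham at 24 h. It therefore overlaps with the operation, and the SE of Col3a1 was 0.31 without it. The 0 calls cannot separate the 2. The part of the receptor genes' shift in these results was not tested beyond that fit.

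At 72 h, 2 of 44 collagen genes were lower (4.55%) and 0 were higher, against 2.35% of all genes called in either direction 1.19% called lower and 1.17% called higher. Both had been lower at 24 h as well. The median change was -0.05 over the collagen genes and 0.00 over all genes. Of the 12 genes lower at 24 h, 11 had a negative sign at 72 h, the exception being Col5a3 (0.09). Of all 24011 genes, 11805 had a negative sign at 72 h. Several of these collagen genes vary together across arrays, so their signs are not independent.

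Col3a1 again changed most. It had values of 6.24, 6.74 and 8.55 (lowest, median, highest) in sham 72 h and 5.31, 5.36 and 6.14 in MCAO 72 h, without overlap, and it fell by 1.45 (SE 0.31, 2.73-fold lower, adjusted p = 0.00863). Col14a1 had 4.69, 4.74 and 5.87 in sham 72 h and 3.94, 4.20 and 4.33 in MCAO 72 h, also without overlap, and it fell by 0.77 (SE 0.17, 1.71-fold lower, adjusted p = 0.0126). For both genes the highest sham value was that of replicate 2. Without that array the changes were -1.13 (adjusted p = 0.013) and -0.59 (adjusted p = 0.0176).

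The type I chains and Col15a1 did not pass at 72 h. Col1a1 had values of 7.06, 7.65 and 9.14 in sham 72 h and 6.50, 6.73 and 7.42 in MCAO 72 h, a change of -0.91 (SE 0.28, adjusted p = 0.0929). Col1a2 had 6.99, 7.51 and 8.998 in sham and 6.72, 6.78 and 7.53 in MCAO, a change of -0.72 (SE 0.26, adjusted p = 0.194). Col15a1 had 4.80, 5.35 and 6.57 in sham and 4.59, 4.80 and 4.92 in MCAO, a change of -0.69 (SE 0.22, adjusted p = 0.106). Replicate 2 of sham 72 h was the highest sham array for each of these genes, and without it the changes of Col1a1, Col1a2 and Col15a1 were -0.63, -0.45 and -0.48 (limma adjusted p = 0.203, 0.444 and 0.241). With array weights Col1a1 and Col15a1 did pass (adjusted p = 0.0208 and 0.0134). Col15a1 also passed in 2 of the 24 fits that left out 1 array, those without MCAO 24 h replicate 5 or sham 72 h replicate 6. It passed without MCAO 24 h replicates 5 and 6 as well, whether or not sham 72 h replicate 2 was kept. At an unadjusted p below 0.05, 6 collagen genes differed at 72 h, against 10.9% of all genes.

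The other genes lower at 24 h did not pass at 72 h. Changes were -0.27 for Col5a1 (interval -0.66 to 0.12), -0.11 for Col27a1 (interval -0.33 to 0.11), -0.06 for Col5a2 (interval -0.37 to 0.26), -0.05 for Col2a1 (interval -0.32 to 0.23), -0.04 for Col26a1 (interval -0.27 to 0.19) and -0.01 for Col11a2 (interval -0.13 to 0.10). Col28a1 and Col8a2 had changes of 0.04 and 0.05. Their 72 h ranges overlapped between MCAO and sham in each case.

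Whether the effect of MCAO differed between the times was tested directly. By limma, 0 of 44 collagen genes passed for the 72 h effect minus the 24 h effect, against 1.79% of all genes (0.991% higher, 0.8% lower), and 8 had an unadjusted p below 0.05, against 17.6% of all genes. The smallest adjusted p-values belonged to Col26a1 (0.53, adjusted p = 0.0755) and Col27a1 (0.51, adjusted p = 0.0787). For Col3a1 the difference was 0.18 (interval -0.72 to 1.08) and for Col1a1 it was -0.08 (interval -0.89 to 0.73). No collagen gene was therefore shown to respond differently at the 2 times, including those called at 24 h alone.

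Between the sham groups, 0 collagen genes differed by limma, against 0.0208% of all genes (0.00833% higher, 0.0125% lower), and 1 (Col5a3, -0.47, adjusted p = 0.166) had an unadjusted p below 0.05, against 3.69% of all genes. Between the MCAO groups, 4 collagen genes were higher at 72 h than at 24 h, against 10.4% of all genes in either direction and 5.04% higher. These were Col27a1 (0.51, adjusted p = 0.00502), Col2a1 (0.46, adjusted p = 0.0307), Col26a1 (0.40, adjusted p = 0.0232) and Col11a2 (0.22, adjusted p = 0.0159). With the receptor component as a covariate this number was 0.

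The collagen genes were also set against each other on the same array. These differences, of 8 pairs at each time, were chosen after the changes above had been seen and follow from them, so they are given as a description without a test. Col3a1 minus Col4a1 was 0.29 ± 0.29 (SD, n = 6) in sham 24 h and -1.22 ± 0.63 in MCAO 24 h, a shift of -1.51 (SE 0.28). At 72 h it was 0.16 ± 0.57 in sham and -1.19 ± 0.29 in MCAO, a shift of -1.35 (SE 0.26). All 6 MCAO arrays lay below all 6 sham arrays at both times.

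Col1a1 minus Col4a1 shifted by -0.71 at 24 h (SE 0.26) and by -0.81 at 72 h (SE 0.22). Col3a1 minus Col1a1 shifted by -0.80 at 24 h (SE 0.18), with 5 of 6 MCAO arrays below all sham arrays, and by -0.54 at 72 h (SE 0.10), with 6 of 6. Between the partner chains of type I collagen, Col1a1 minus Col1a2 shifted by 0.08 at 24 h (SE 0.20) and by -0.19 at 72 h (SE 0.08). Leaving out each array in turn, the latter shifts ran from -0.052 to 0.24 at 24 h and from -0.26 to -0.15 at 72 h.

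**Figure D3:**
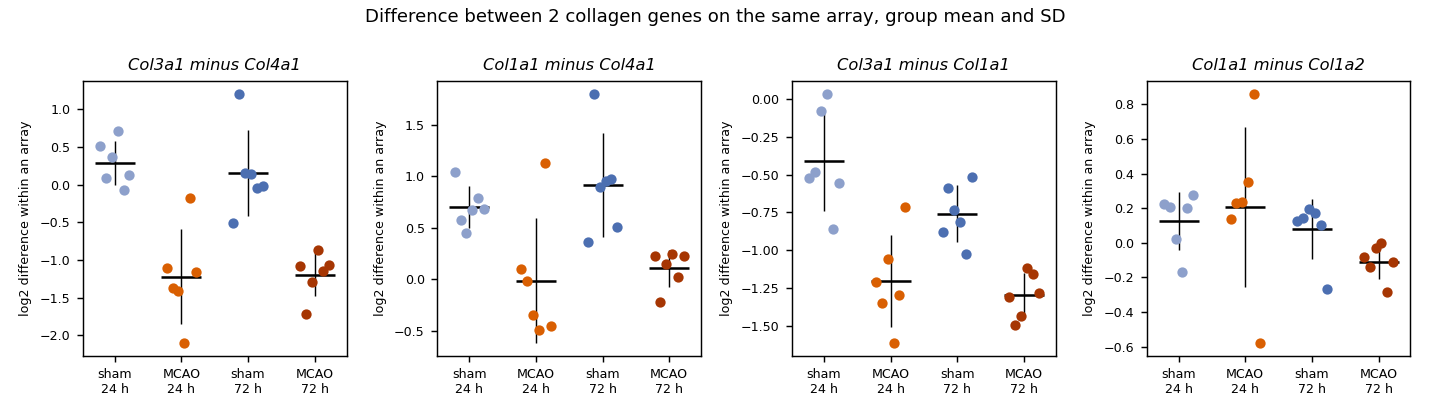
Difference in log2 expression between 2 collagen genes on the same array (vertical axis), by group, with group mean and SD as lines. Col3a1 minus Col4a1 and Col3a1 minus Col1a1 are shifted down in MCAO at both times, by 1.51 and 0.80 at 24 h, while Col1a1 minus Col1a2 overlaps between the groups.

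Col3a1 minus Col6a1, a type VI chain, shifted by -1.38 at 24 h and by -1.12 at 72 h (SE 0.20 and 0.24). Col14a1 minus Col12a1, another fibril-associated chain, shifted by -0.94 and -0.64 (SE 0.21 and 0.05). Col15a1 minus Col18a1 shifted by -0.57 at 24 h (SE 0.26; -0.78 without MCAO 24 h replicate 5) and by -0.81 at 72 h (SE 0.22). For Col5a1 minus Col5a2 the shifts were -0.43 (SE 0.26) and -0.21 (SE 0.08).

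Partner chains were next compared by their deviations from the group means over the 24 arrays, which removes the effect of MCAO and time. The 2 chains of type I collagen varied together, with r = 0.86 and rho = 0.81 (permutation within groups, adjusted p = 0.000312 and 0.00012 over 12 pairs). Over all other genes on the array, Col1a2 ranked 3 by its correlation with Col1a1, and Col3a1 ranked 2. Col1a1 and Col3a1 had r = 0.90 and rho = 0.73 (permutation adjusted p = 0.00012 and 0.00144, the first resting on the smallest p that 100000 resamples can give). The neighbours Col3a1 and Col5a2 had r = 0.86 and rho = 0.66 (permutation adjusted p = 0.000312 and 0.00285). Leaving out the 2 arrays farthest from the median gave r = 0.82, 0.79 and 0.69 for these 3 pairs, and within the 24 h arrays r was 0.68, 0.79 and 0.78, against 0.97, 0.96 and 0.91 within the 72 h arrays.

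The type VI chains also varied together. Col6a1 had r = 0.86 with its neighbour Col6a2 (rho = 0.73, permutation adjusted p = 3e-04 and 0.00208) and r = 0.84 with Col6a3 (rho = 0.68, permutation adjusted p = 0.000312 and 0.00401). Without the 2 farthest arrays these were 0.77 and 0.77. Col4a1 and Col4a2, which start 21 bases apart, had r = 0.54 (rho = 0.48, permutation adjusted p = 0.0394 and 0.0678), with 0.06 within the 24 h arrays, 0.92 within the 72 h arrays and 0.33 without the 2 farthest arrays. The value without those arrays was not tested. The other 6 pairs, Col5a1 with Col5a2 (r = 0.45, adjusted permutation p = 0.137) among them, did not pass.

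**Figure D4:**
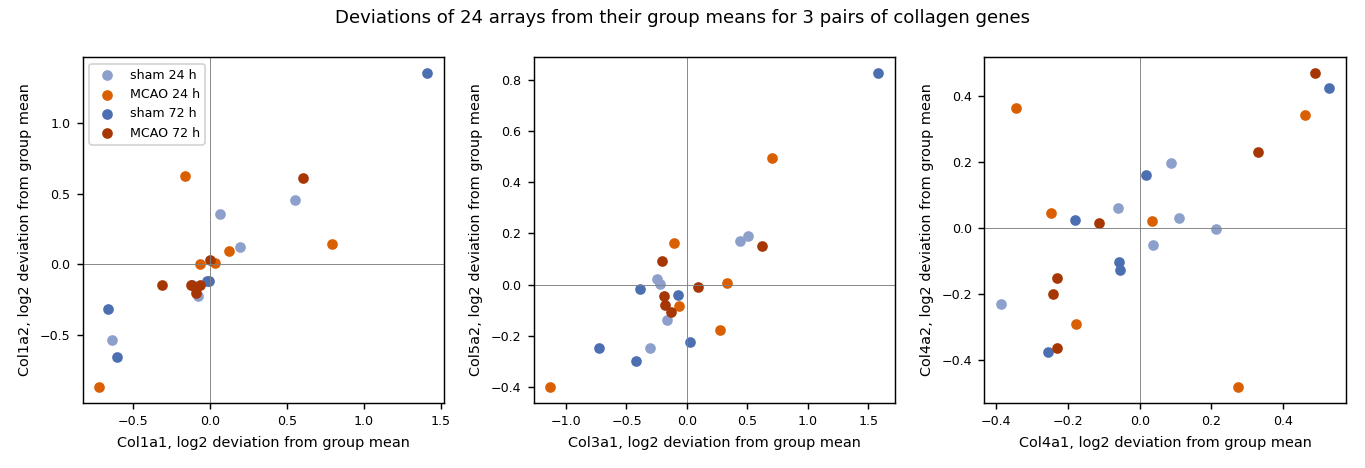
Log2 deviation from the group mean of 1 gene against that of another on 24 arrays, coloured by group, for Col1a1 with Col1a2, Col3a1 with Col5a2 and Col4a1 with Col4a2. The first 2 pairs lie along a line (r = 0.86 each), and the third is more scattered (r = 0.54).

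The genes most like Col1a1 by these deviations were Col5a2 (r = 0.91), Col3a1 (0.90), Col1a2 (0.86), Rcn3 (0.84) and Col6a3 (0.83). For Col3a1 they were Col1a2 (0.92), Col6a3 (0.92), Col1a1 (0.90), Rcn3 (0.88) and Fstl1 (0.86). For Col4a1 they were Dysf (0.83), Itgb2 (0.83), Kcnrg (0.83), Loxl1 (0.81) and Cyth4 (0.80), none of them a collagen. These are descriptions over 24 arrays, which share within a library whatever else differed between hearts and arrays.

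Genes that act on collagen chains were counted from lists of the pathway. The shares over all genes, against which each list stands, were 10.8% lower and 11.1% higher at 24 h. At 72 h they were 1.19% lower and 1.17% higher. Of 19 measured genes for folding and modification, 1 was lower and 2 were higher at 24 h. Serpinh1, the collagen-specific chaperone Hsp47, had values of 6.61, 7.02 and 7.71 (lowest, median, highest) in sham 24 h and 5.41, 6.04 and 6.45 in MCAO 24 h, without overlap, and it fell by 1.13 (SE 0.19, adjusted p = 0.000216). P3h4, a partner of the lysyl hydroxylation complex, was higher by 0.61 (adjusted p = 0.000483), and Mia3, which loads procollagen into transport carriers, was higher by 0.38 (adjusted p = 0.00172). At 72 h only Serpinh1 passed among these 19, with a fall of 0.78 (SE 0.19, adjusted p = 0.023) from a median of 6.95 to 6.22.

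Of 13 genes for procollagen processing and cross-linking, 2 were lower and 2 higher (15.4% each) at 24 h and 0 passed at 72 h. Loxl2, a lysyl oxidase that cross-links collagen, fell by 0.88 (SE 0.22, adjusted p = 0.00684), and Pcolce2, an enhancer of procollagen cleavage, fell by 0.39 (adjusted p = 0.0438). Adamts3, a procollagen N-proteinase, was higher by 0.51 (adjusted p = 0.0411) and Tll2 by 0.32 (adjusted p = 0.0485). At 72 h the change of Loxl2 was -0.51 (adjusted p = 0.351) and that of Sparc, a collagen-binding matrix protein, was -0.37 (adjusted p = 0.178).

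The largest changes among genes for collagen breakdown and its inhibition were those of 2 inhibitors. Of 13 measured, 3 were higher (23.1%) and 2 lower (15.4%) at 24 h, and 2 were higher (15.4%) at 72 h. Timp4, a metalloproteinase inhibitor abundant in the heart, had values of 5.51, 5.99 and 6.80 in sham 24 h and 7.52, 7.77 and 7.99 in MCAO 24 h, without overlap, a rise of 1.65 (SE 0.22, adjusted p = 2.08e-05). It was also higher at 72 h, by 0.93 (SE 0.22, adjusted p = 0.0176). Timp3, an inhibitor bound to the matrix, rose by 1.05 (SE 0.16, adjusted p = 7.29e-05) and by 0.61 (SE 0.16, adjusted p = 0.0324). The other calls at 24 h were Mmp8, a neutrophil collagenase (0.28, adjusted p = 0.0162), Mrc2, an uptake receptor for collagen fragments (-0.41, adjusted p = 0.0177), and Mmp13, a collagenase (-0.19, adjusted p = 0.0377).

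Of 9 collagen receptor genes, 1 passed at each time (11.1%, lower). Itga1, the integrin chain that binds type IV collagen, spanned 8.45 to 8.62 in sham 24 h and 7.67 to 8.38 in MCAO 24 h, without overlap, and fell by 0.32 (SE 0.09, adjusted p = 0.018). At 72 h it spanned 8.39 to 8.53 in sham and 7.78 to 8.25 in MCAO, again without overlap, and fell by 0.46 (SE 0.09, adjusted p = 0.00633). Ddr2, a fibrillar collagen receptor, had changes of -0.15 and -0.19 (adjusted p = 0.408 and 0.727).

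Of 17 measured regulators of collagen genes, 6 were higher (35.3%) and 0 lower at 24 h, and 1 was higher (5.88%) at 72 h. Smad7, an inhibitor of transforming growth factor beta signalling, spanned 4.55 to 5.11 in sham 24 h and 5.28 to 6.03 in MCAO 24 h and rose by 0.69 (SE 0.10, adjusted p = 4.97e-05). The receptors Tgfbr1 and Tgfbr2 were higher by 0.67 and 0.43 (adjusted p = 0.0171 and 0.00399), and Ski, a repressor in the same pathway, by 0.33 (adjusted p = 0.0205). At 72 h the call was on Ccn2, a matricellular protein often induced with fibrosis, which had values of 6.40, 6.75 and 7.86 in sham and 7.56, 7.95 and 8.38 in MCAO, a rise of 1.05 (SE 0.24, adjusted p = 0.0161). Its direction was opposite to that of Col3a1 at the same time.

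The miR-29 microRNAs are known to target many collagen mRNAs through a shared seed. Their mature sequences from RefSeq are shown with the seed (bases 2 to 8) in capitals, and both lie on the minus strand of GRCm38.p6.
miR-29a-3p, chr6:31062673-31062694: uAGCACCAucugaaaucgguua
miR-29b-3p, chr6:31063025-31063047: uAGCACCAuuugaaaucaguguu
The array probes for the genes Mir29a and Mir29b-1 measure RNA of the hairpin region in total RNA, not these mature strands. Mir29a spanned 3.04 to 3.68 (median 3.18) in sham 24 h and 3.61 to 4.23 (median 3.71) in MCAO 24 h and was higher by 0.57 (SE 0.12, adjusted p = 0.00171). Mir29b-1 spanned 2.83 to 3.05 and 2.90 to 3.52 and was higher by 0.22 (SE 0.08, adjusted p = 0.0474). Both signals were low, under the 90th percentile of the receptor genes' mean levels (3.71) when averaged over all arrays (3.38 and 2.98), and at 72 h the medians were 3.18 in sham and 3.26 in MCAO for Mir29a.

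Markers of collagen-producing cells are given beside these results. For marker lists too, the shares over all genes were 10.8% lower and 11.1% higher at 24 h. At 72 h they were 1.19% and 1.17%. Of 10 fibroblast markers, 2 were lower at 24 h, Lum (-1.31, adjusted p = 0.000185) and Dpt (-0.42, adjusted p = 0.0497), and at 72 h Pi16 was lower (-0.999, adjusted p = 0.0328) and Gsn higher (0.39, adjusted p = 0.0145). The summed level of the 10 markers ran from 13.17 to 13.501 in sham 24 h, 13.0 to 13.4 in MCAO 24 h, 13.3 to 13.7 in sham 72 h and 13.3 to 13.7 in MCAO 72 h on the log2 scale. These sums overlapped between MCAO and sham at both times.

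Of 10 activated fibroblast markers, 3 passed at 24 h, all lower, and 0 passed at 72 h, and all 10 had a negative sign at both times. A negative sign was found for 11557 of all 24011 genes at 24 h and 11805 at 72 h. Those called were Postn, a matrix protein of activated fibroblasts (-1.53, adjusted p = 0.0176), Acta2, smooth muscle actin (-0.84, adjusted p = 0.00234), and Cthrc1 (-0.46, adjusted p = 0.000698). Their summed level ran from 10.49 to 11.3 in sham 24 h and 9.92 to 10.3 in MCAO 24 h, without overlap, and from 10.7 to 12.2 in sham 72 h and 9.98 to 11.1 in MCAO 72 h. Postn values were 7.34, 8.33 and 9.21 (lowest, median, highest) in sham 24 h and 6.04, 6.68 and 7.40 in MCAO 24 h, and Postn reached 10.4 on its highest sham 72 h array. The part of a shift in these cells in the collagen results was not tested.

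Markers of other cell types were read in the same way, against the same shares over all genes. Cardiomyocyte markers were lower for 3 of 10 at 24 h and 0 of 10 at 72 h, with changes of -0.33 to 0.06 at 24 h. Endothelial markers were lower for Kdr (-0.88, adjusted p = 2.59e-05) and higher for Tie1 and Pecam1 at 24 h, and their summed levels overlapped (12.1 to 12.3 in sham, 12.02 to 12.2 in MCAO). Smooth muscle and pericyte markers were lower for 3 of 10 at 24 h, among them Acta2, which is also on the activated fibroblast list. Macrophage markers were lower for 1 of 10 at each time, Folr2 (-0.63 and -1.21). Skeletal muscle markers, some of which (Acta1 and Ckm) the heart also expresses, were lower for 3 of 8 at 24 h and 1 of 8 at 72 h. Their summed level ran from 11.298 to 12.21 in sham 24 h and 11.421 to 11.797 in MCAO 24 h, and from 11.645 to 12.447 in sham 72 h and 10.797 to 11.556 in MCAO 72 h, so that the groups overlapped at 24 h and not at 72 h. The part of that shift in the 72 h collagen results was not tested. Of Schwann cell markers 0 of 6 passed at either time, of mesothelial markers 1 of 6 was higher and 1 lower at 24 h, and of red blood cell markers 1 of 4 was higher and 1 lower.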

How the data were processed

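Total RNA from hearts was extracted with Trizol and labelled for Affymetrix arrays, per the labels' protocols. The deposited table holds log2 values for 24973 identifiers on 24 arrays, and the log2 scale was judged from the values (2.78 to 13.5), whose sorted columns agreed within 0.002, as after quantile normalization. HOMER is the sole tool in the submitters' processing notes, and its version, the probe summarization and any other software were not given in the sources used here. Platform annotation named 24015 identifiers with 1 symbol, left 958 unnamed and gave 24011 genes, keeping for a symbol the identifier with the highest mean. Groups came from titles, source names and time labels (1 or 3 days); the description field of these later samples mentions 24 h and was not followed.

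Changes were fitted with limma 3.58.1 in R 4.3.3 (4 group means, 20 residual degrees of freedom, adjustment over all genes, threshold 0.05) and checked on simulated data. Intervals are 95%. The number of arrays limits the precision. Alternatives were a robust trended prior, median centring, quantile normalization, a filter on dim genes, array weights, a replicate block, fewer groups or arrays, a covariate and exact permutation tests. Within-array differences, given without a test, and the fit without 3 arrays were added after the data were examined. Pair correlations were tested with 100000 permutations within groups.

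The members and all lists were chosen with earlier results of these data known. Collagen genes past the threshold at 24 h or 72 h, and the 3 with the smallest p at 24 h in each class, are given with group values; pathway lists are given as counts with up to 4 genes of the smallest p at each time. Marker genes, Ski, Mir29b-1 and other collagen genes named were chosen after their values were seen. Promoter windows and microRNAs came from RefSeq tables (GRCm38.p6).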

Additional observations from a re-analysis of the deposited data

Results flagged for a closer look

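For the 16 collagen genes given with group values, 64 groups of 6 arrays were checked for an array far from the others (a gap to its nearest neighbour, as a share of the group's range, above Dixon's 95% critical value for 6 values). Chance gives about 5% of such groups, and 13 were found, on 3 arrays. Several of these genes vary together across arrays, so the flags are not independent. The number found was not tested against the 5%. Replicate 2 of sham 72 h was far above the other sham arrays for Col1a1 (9.14, next 7.72), Col1a2 (8.998, next 7.53), Col3a1 (8.55, next 6.99), Col5a1 (6.75, next 5.98), Col5a2 (5.87, next 5.02) and Col14a1 (5.87, next 4.94). It was the highest sham 72 h array for 18 of the 44 collagen genes. Replicate 6 of MCAO 72 h was far above its group for Col1a1 (7.42, next 6.81), Col1a2 (7.53, next 6.95), Col3a1 (6.14, next 5.604) and Col4a6 (3.96, next 3.83), and was the highest of its group for 18 of 44. Replicate 5 of sham 24 h was far above its group for Col2a1 (5.19, next 4.73), Col5a3 (5.94, next 5.49) and Col27a1 (6.06, next 5.46), and was the highest for 19 of 44. At the other end, replicate 3 of sham 24 h was the lowest of its group for 20 of 44. What sets these arrays apart was not tested.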

How the results depend on the processing

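The number of collagen genes called at 24 h was 14. It was 22 without replicates 5 and 6 of MCAO 24 h and 22 when replicate 2 of sham 72 h was also left out. It was 0 with the receptor genes' first principal component as covariate, and 6 by exact permutation. Those 6 were the genes with complete separation at 24 h, which share the smallest p that the permutation test can give (adjusted p = 0.0392). The count of 6 therefore repeats that separation. Leaving out 1 array gave 10 to 17 (lowest without sham 24 h replicate 1 or 4, highest without MCAO 24 h replicate 6). The share of all genes called in each fit is not given here beside these counts or those below, apart from the 72 h permutation test. A move in them is therefore not read as a result about collagen genes. With the covariate the change of Col2a1 turned from -0.52 to 0.17 (adjusted p = 0.654). At 72 h the number was 2, it was 4 with array weights, and leaving out 1 array gave 2 to 3. By exact permutation it was 0, as it was over all genes. Col3a1 and Col14a1, with complete separation, had the smallest p that the permutation test can give, and their adjusted p was 0.0612. No gene could therefore pass that test at 72 h, so it cannot decide whether the 72 h calls hold. With dim genes left out Col1a1 also passed at 72 h (adjusted p = 0.0436). For the difference between the effects it was 0, and 2 without those 3 arrays (0 to 2 when 1 was left out, 2 without MCAO 24 h replicate 1 or 6). Between the sham groups it was 0, and 1 with array weights (0 to 0). Between the MCAO groups it was 4, and 2 with array weights, 1 with only those groups fitted, 0 with the covariate, and 2 to 6 when 1 array was left out. The causes were not tested. The within-array shift of Col1a1 against Col1a2 at 24 h turned from 0.08 to -0.052 without MCAO 24 h replicate 5 (-0.052 to 0.24 when 1 array was left out). With the replicate block the numbers were 13 at 24 h, 2 at 72 h, 0, 0 and 4; same-numbered arrays did not deviate together (r of -0.229 to 0.151 over 36 pairs), so the numbers do not pair the samples.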
